A study of Saccharomyces cerevisiae with 6 samples.

Results

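Paired large subunit ribosomal protein genes are those budding yeast genes for proteins of the large ribosomal subunit that exist as an A copy and a B copy at separate places in the genome. The members described here are the rows of the deposited table named RPL, digits and A or B, without the RPL7, RPL17, RPL19, RPL22, RPL26, RPL31 and RPL35 pairs. This rule gave 35 of the table's 239 genes, namely both copies of 17 pairs and RPL20B, whose partner was not analysed here. All 35 systematic names carried the same symbol in RefSeq, and each member had 1 row, with 1 exon, 1 intron and 1 junction feature.

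Each culture pair set yeast whose PRP8 gene encodes the S2197F change in Prp8 against yeast with wild-type PRP8. In the mutant and in the wild-type strain alike, the chromosomal PRP8 was deleted and the gene was carried on a HIS-marked CEN plasmid, a vector kept at a low copy number. Cultures were started overnight at 30 °C in YEPD, a rich medium, and then grown at 37 °C to an OD600 near 0.7. There were 3 independent pairs of cultures, each hybridised on 2 two-colour arrays with the dyes exchanged, and the 2 arrays count as 1 replicate (n = 3). The labels do not say whether the cultures came from separate transformants. PRP8 was not analysed here, so the labels could not be checked by it.

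Prp8 is the large protein that holds the catalytic core of the spliceosome, the machine that cuts introns out of pre-mRNA. Few yeast genes have introns, but many ribosomal protein genes do, and because they are among the most transcribed genes of growing cells they supply a large part of the introns that a yeast cell splices. Copies of a pair encode identical or nearly identical proteins, while their introns differ in sequence. The protein pairs of RPL2, RPL23, RPL40, RPL42 and RPL43 are identical between copies, so exon probes of those copies in particular cannot be assumed to tell them apart.

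Values are log ratios of mutant over wild type as the authors deposited them, taken as log2, so that 1 unit is a doubling. The intron feature was read in the labels as pre-mRNA, the junction feature, which spans the joined exons, as mature mRNA, and the exon feature as total mRNA. An intron probe also binds excised introns and splicing intermediates. Errors of single features are SEs from limma's empirical Bayes fit over the whole table, and p-values are limma's, two-sided, adjusted by Benjamini-Hochberg over all features of the class, with 0.05 as the threshold. The replicates differed in spread: over all intron features the SD was 0.55, 0.32 and 0.52 in replicates 1, 2 and 3, and over the members' introns 0.39, 0.18 and 0.42. No member had the same values as another row, and missing values among members occurred only in junctions, in 1 replicate each of RPL16B, RPL23B and RPL27A.

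Introns of these genes gave more signal in the mutant. By limma, 15 of 35 member introns rose and 0 fell, beside 23.5% of all 251 intron features that rose. Among the large rises were those of RPL33A at 1.95-fold and RPL20B at 1.84-fold, and the smallest ratio that passed was 0.52, in RPL36B. Of the 35 introns, 27 were above 0 in every replicate and 0 below 0 in every replicate, against 51.4% and 4.49% of the intron features measured in all 3. In replicate 2 the members' introns ran from 0.06 to 0.88, so every one was above 0. In replicate 1 the lowest was -0.39 with 33 above 0, and in replicate 3 it was -0.21 with 28 above 0. The count depended on the replicates: 5 introns passed without replicate 1, 0 without replicate 2 and 10 without replicate 3. The shares of all intron features in these settings are not given here, so the drop is not shown to be particular to the members.

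**Figure D1:**
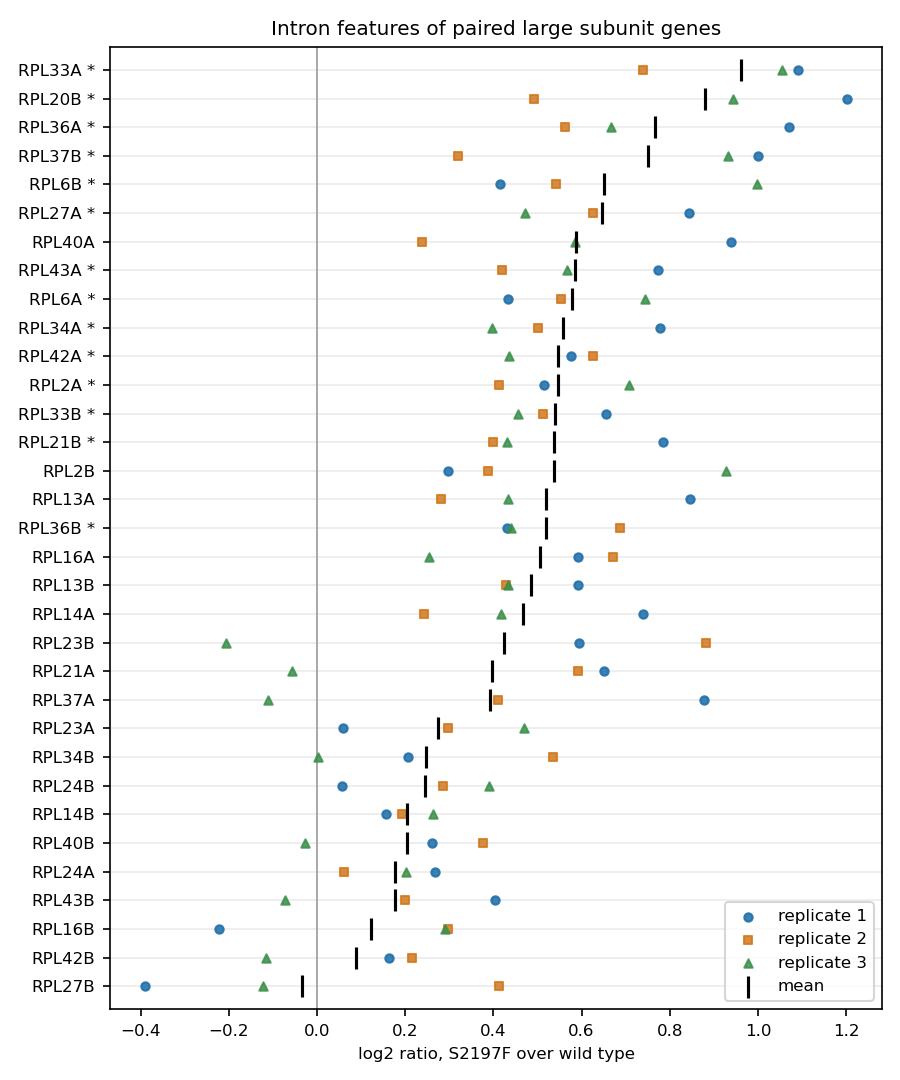
Log2 ratio of S2197F over wild type (horizontal axis) for the intron feature of 33 of the 35 members, ordered by mean. Coloured symbols are the 3 replicates, black bars their mean, and an asterisk marks introns with an adjusted p under 0.05. RPL33A is at the top with a mean of 0.96 and RPL27B at the bottom with -0.03.

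Proteins that bind the rRNA domains made earliest, and so join the growing subunit early, form the largest role group among the members (RPL6, RPL13, RPL14, RPL16, RPL20, RPL33 and RPL36 among them). Of their 15 introns 8 rose, 53.3% against 42.9% of all member introns and 23.5% of all introns. Above 0 in every replicate were 14 of the 15. The intron of RPL33A (YPL143W) had 1.09, 0.74 and 1.06 in replicates 1, 2 and 3 (0.96 ± 0.16, adjusted p = 0.015), and that of RPL33B (YOR234C) had 0.65, 0.51 and 0.46 (0.54 ± 0.15, adjusted p = 0.043). RPL33A was above RPL33B in each replicate. RPL20B (YOR312C), the member without a partner here, had 1.20, 0.49 and 0.94 (0.88 ± 0.18, adjusted p = 0.021), with replicate 2 the lowest.

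The RPL36 and RPL6 pairs rose in both copies. The RPL36A intron (YMR194W) had 1.07, 0.56 and 0.67 (0.77 ± 0.17, adjusted p = 0.023), and the RPL36B intron (YPL249C-A) had 0.43, 0.69 and 0.44 (0.52 ± 0.16, adjusted p = 0.049). The copies changed order, with A above B in replicates 1 and 3 and below it in replicate 2. RPL6B (YLR448W) had 0.41, 0.54 and 1.00 (0.65 ± 0.18, adjusted p = 0.039) and RPL6A (YML073C) had 0.43, 0.55 and 0.74 (0.58 ± 0.16, adjusted p = 0.039), so the copies lay within 0.02 of each other in replicates 1 and 2. The RPL13, RPL14 and RPL16 introns did not pass, with means from 0.12 in RPL16B to 0.52 in RPL13A. Of these 6, RPL13B came nearest to the threshold at 0.59, 0.43 and 0.43 (adjusted p = 0.056), RPL14B was the steadiest at 0.16, 0.19 and 0.26, and RPL16B (YNL069C) was the only one with a value below 0, at -0.22 in replicate 1 against 0.30 and 0.29.

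RPL23, RPL27, RPL34 and RPL37 were kept as a list of their own, and 3 of its 8 introns rose. This was 37.5%, against the same 42.9% of member introns and 23.5% of all introns. RPL37B (YDR500C) had 1.00, 0.32 and 0.93 (0.75 ± 0.19, adjusted p = 0.033). RPL27A (YHR010W) had 0.84, 0.63 and 0.47 (0.65 ± 0.16, adjusted p = 0.033), whereas RPL27B (YDR471W), the lowest of all members, had -0.39, 0.41 and -0.12 (-0.03 ± 0.19, adjusted p = 0.92). RPL34A (YER056C-A) had 0.78, 0.50 and 0.40 (0.56 ± 0.16, adjusted p = 0.043). The partner introns RPL37A and RPL34B, and both RPL23 introns, had means from 0.25 to 0.42 and did not pass. RPL23B reached 0.88 in replicate 2 and -0.21 in replicate 3.

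RPL21, a protein of the central protuberance, was the only pair of its role among the members. RPL21B had 0.78, 0.40 and 0.43 (0.54 ± 0.16, adjusted p = 0.049), and RPL21A 0.65, 0.59 and -0.06 (0.40 ± 0.19, adjusted p = 0.17). A last list held RPL2, RPL24, RPL40, RPL42 and RPL43, and 3 of its 10 introns rose, each from an A copy. This share of 30% is near the 23.5% of all introns. RPL43A (YPR043W) had 0.77, 0.42 and 0.57 (0.59 ± 0.16, adjusted p = 0.039), RPL42A, whose protein lies near the tRNA exit site, had 0.58, 0.63 and 0.43 (adjusted p = 0.042), and RPL2A, whose protein reaches towards the peptidyl transferase centre, had 0.51, 0.41 and 0.71 (adjusted p = 0.043). RPL40A, whose protein is made as a fusion to ubiquitin, just missed the threshold at 0.59 ± 0.18 (adjusted p = 0.051).

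The lowest introns of that list came from B copies and from RPL24, which forms a bridge to the small subunit. RPL42B (YHR141C) had 0.16, 0.22 and -0.12 (0.09 ± 0.16, adjusted p = 0.73), RPL43B (YJR094W-A) had 0.40, 0.20 and -0.07 (0.18 ± 0.17, adjusted p = 0.47), and RPL24A (YGL031C) had 0.27, 0.06 and 0.20 (0.18 ± 0.15, adjusted p = 0.44). None of these means exceeded its SE by much, so no change of these introns was detected with 3 replicates.

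As a group, the members' introns had medians of 0.59, 0.41 and 0.43 in the 3 replicates, a mean of 0.48 ± 0.10 (SD, n = 3), against 0.14, 0.26 and 0.36 (0.25 ± 0.11) over all other intron features. In each replicate the members' median was the higher of the 2. Other ribosomal protein genes had similar counts and medians: 19 of 44 introns of paired small subunit genes rose, with a median of 0.48 ± 0.08, as did 7 of 15 introns of the left-out large subunit pairs (0.55 ± 0.16) and 3 of 7 introns of single-copy ribosomal protein genes (0.60 ± 0.19). In genes outside these lists 15 of 150 introns rose and the median was 0.13 ± 0.16. The members are therefore described here as part of the ribosomal protein genes at large, and no difference from the other ribosomal lists was tested.

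**Figure D2:**
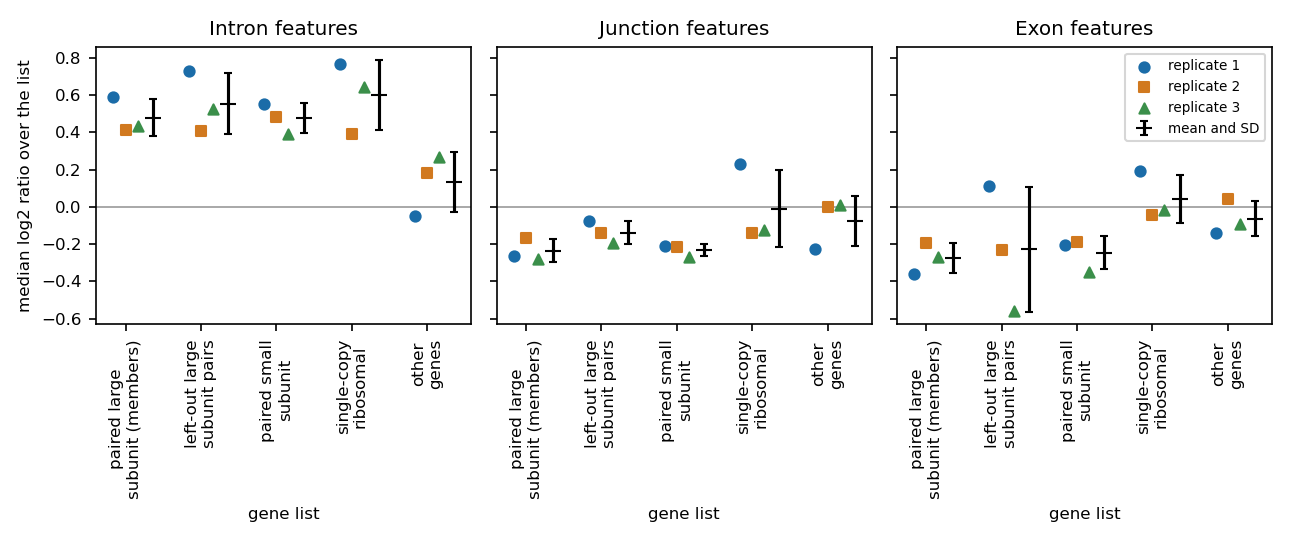
Median log2 ratio of S2197F over wild type (vertical axis) for each gene list (horizontal axis), in intron, junction and exon features. Coloured symbols are the medians of the 3 replicates, with their mean and SD in black. The members' intron medians lie between 0.41 and 0.59, and their junction and exon medians below 0.

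Junctions, the sign of spliced mRNA, were mostly somewhat lower in the mutant, but none passed by limma. Of 35 member junctions 0 rose and 0 fell, beside 0.403% of all 248 junction features that fell, and at an unadjusted p under 0.05 there were 6 lower and 0 higher, against 11.7% and 1.61% of all junctions. The mean was below 0 for 29 members, and for 71.4% of all junctions. Of 32 junctions measured in every replicate, 13 were below 0 in all 3 and 1 above, against 29.7% and 6.85% of all such features. The lowest was RPL27B, the gene with the lowest intron ratio, at -0.87, -1.39 and -0.45 (-0.90 ± 0.21, adjusted p = 0.19). RPL21A (YBR191W) had -0.83, -0.27 and -1.38 (-0.83 ± 0.22, adjusted p = 0.19). RPL6B had -0.72, -0.50 and -0.50 and RPL14B (YHL001W) -0.45, -0.51 and -0.74, both with means of -0.57 ± 0.16 and an adjusted p of 0.19. All 4 were below 0 in each replicate. Without replicate 1 the junctions of RPL21A and RPL27B fell (adjusted p = 0.021 and 0.0071), and without replicate 3 that of RPL27B did.

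The highest junction ratios were set by single replicates. RPL37B had 1.05, 0.00 and -0.19 (0.29 ± 0.25, adjusted p = 0.68), RPL42A had 0.45, 0.01 and -0.14, and RPL27A had -0.86 and 1.20 in the 2 replicates that measured it. RPL33B, at 0.03, 0.08 and 0.15 (0.09 ± 0.15), was the only member with a junction above 0 in all 3. Over the members the junction medians were -0.26, -0.17 and -0.28 (-0.24 ± 0.06, SD, n = 3), close to those of paired small subunit genes (-0.23 ± 0.03), while all features but the members had -0.12 ± 0.08.

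Exon signal, the measure of total mRNA, was below 0 on average in 32 of 35 members, and in 74.4% of all exon features. By limma 0 rose and 0 fell, as among all 234 exon features (0% each way). At an unadjusted p under 0.05 there were 6 lower and 0 higher members, against 11.1% and 1.71% of all exons. Below 0 in every replicate were 21 exons, 60% of the members, against 33.3% of all exon features, and 2 were above 0 in every replicate, against 6.41%. RPL2A (YFR031C-A) was the lowest exon of the table at -0.86, -0.63 and -0.69 (-0.73 ± 0.16, adjusted p = 0.34). RPL13A (YDL082W) followed at -0.69, -0.46 and -0.53 (-0.56 ± 0.16) and RPL37A (YLR185W) at -0.67, -0.43 and -0.42 (-0.51 ± 0.16), with the same adjusted p. RPL43A had -0.90, -0.11 and -0.30 (-0.44 ± 0.19, adjusted p = 0.39), with replicate 1 well below the others.

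A few exons did not share this. RPL20B had 0.61, 0.09 and 0.24 (0.31 ± 0.17, adjusted p = 0.45) and RPL36A 0.34, 0.07 and 0.01 (0.14 ± 0.16, adjusted p = 0.72), both above 0 in all 3. RPL34A had 0.91, -0.31 and -0.52, so its mean of 0.03 ± 0.27 stands for no single replicate. The RPL34B exon ran the same way, at 0.52, -0.20 and -0.65. RPL27B was near 0 at 0.06, 0.07 and -0.23. The members' exon medians were -0.36, -0.20 and -0.27 (-0.28 ± 0.08, SD, n = 3), and those of all features but the members -0.10 ± 0.05. Paired small subunit genes were close to the members at -0.25 ± 0.09, with 22 of 43 exons below 0 in every replicate. Left-out large subunit pairs had -0.23 ± 0.34 and single-copy ribosomal protein genes 0.04 ± 0.13.

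The level of all exon features was not at 0: their medians were -0.15, -0.07 and -0.19 in the 3 replicates. When each replicate was centred on that level, the medians over the members' means moved from 0.52 to 0.66 for introns, from -0.16 to -0.03 for junctions and from -0.29 to -0.15 for exons. Then 21 member introns rose, which included all 15, and still 0 junctions and 0 exons passed. This centring shifts every feature of a replicate alike. The share of all intron features that rose under it is not given here, so the 21 has no background beside it.

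**Figure D3:**
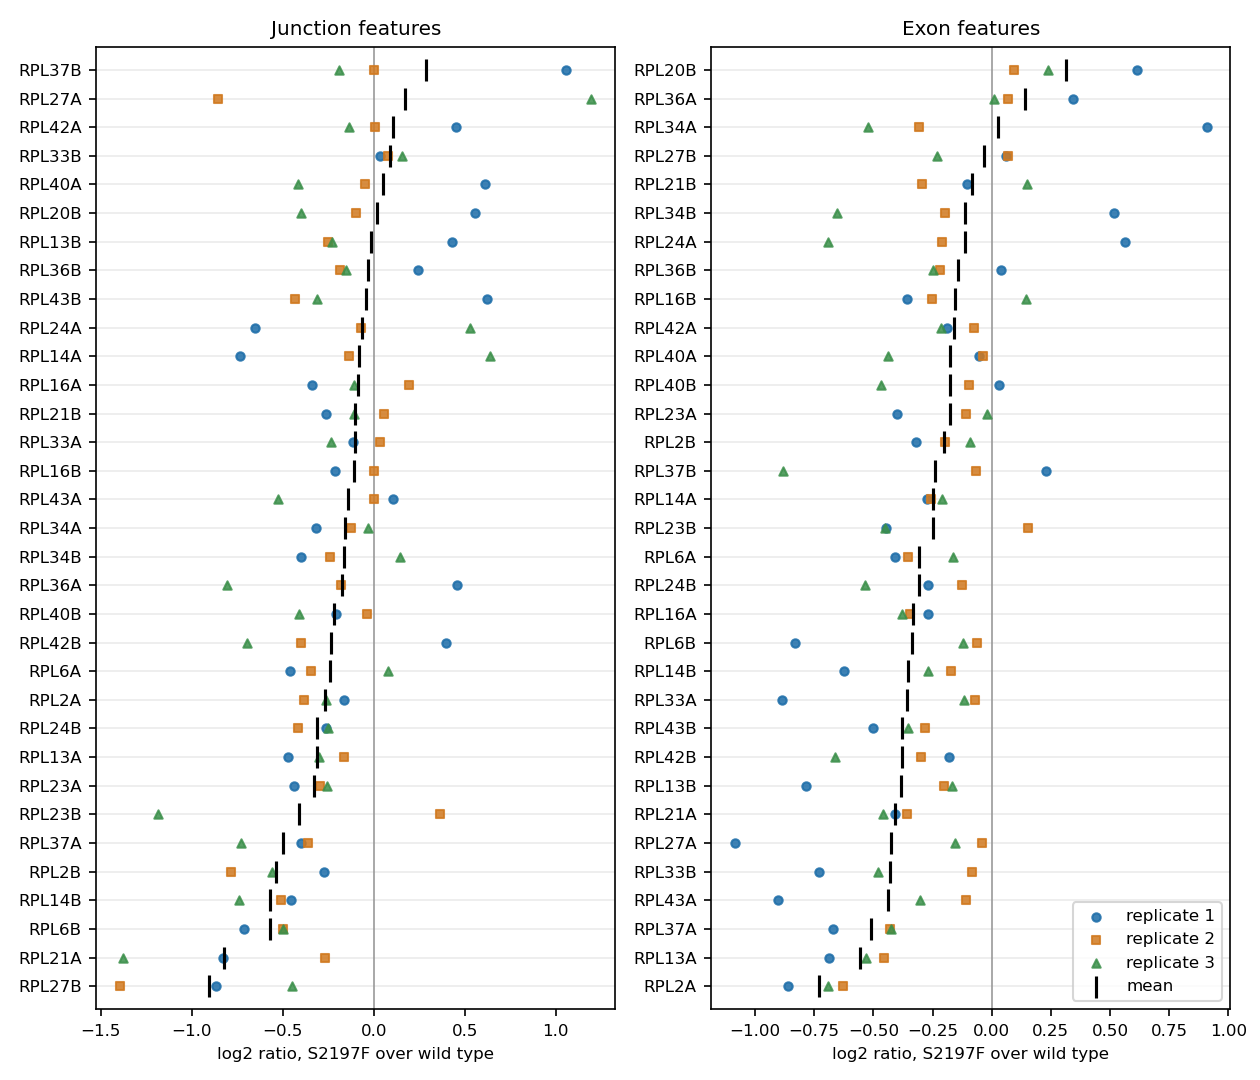
Log2 ratio of S2197F over wild type (horizontal axes) for the junction feature (left) and the exon feature (right) of 33 of the 35 members, each panel ordered by its own mean. Coloured symbols are the replicates and black bars their mean. In replicate 1 the junction of RPL37B (1.05) and the exon of RPL34A (0.91) lie far to the right of their other replicates.

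Differences between features of the same gene and replicate are unaffected by such centring. Intron minus junction rose for 13 of 35 members and fell for 0, beside 21.1% of all 247 rows that rose and 0.405% that fell. The difference was above 0 in every replicate for 26 of the 32 members measured in all 3 and below 0 for 0, against 57.5% and 1.87% of all such rows. The members' share that rose, 37.1%, was near that of paired small subunit genes (15 of 43, 34.9%). Left-out large subunit pairs had 4 of 15, single-copy ribosomal protein genes 2 of 7, and genes outside these lists 18 of 147. RPL6B had 1.13 and 1.04 in replicates 1 and 2 and a higher value in replicate 3 (1.22 ± 0.28, adjusted p = 0.001), and RPL21A had 1.48, 0.86 and 1.32 (1.22 ± 0.28, adjusted p = 0.001). RPL6B and RPL21A reached this with introns of 0.65 and 0.40 and junctions among the lowest. RPL2B (YIL018W) followed at 0.57, 1.17 and 1.48 (1.08 ± 0.28, adjusted p = 0.0042) and RPL33A at 1.21, 0.70 and 1.29 (1.07 ± 0.28, adjusted p = 0.0042). RPL27B had 0.48, 1.81 and 0.33 and also rose (0.87 ± 0.29, adjusted p = 0.025), although its intron was not above 0 on average. Replicate 2 carried most of that mean, which was 0.40 without it (adjusted p = 0.48).

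The smallest differences were those of RPL16B (0.14 ± 0.34, n = 2), RPL43B (0.22 ± 0.28) and RPL24A (0.24 ± 0.29). RPL24A had 0.92, 0.13 and -0.32, so its sign depended on the replicate. The SEs of this comparison are nearly equal across genes because the fit shrank the gene variances heavily (prior degrees of freedom 57.2), and they hardly reflect the spread of a single gene, such as the SD of 0.81 in RPL27B. The members' medians were 0.62, 0.62 and 0.66 in the 3 replicates (0.64 ± 0.02, SD, n = 3), the smallest SD of the members' group values. The median over the members' means was less steady, at 0.63 with all 3 replicates. It was 0.67, 0.71 and 0.66 without replicates 1, 2 and 3, over the 34, 32 and 33 members left in those fits. Without replicate 3, however, 0 members passed, and without replicate 1 or replicate 2 there were 8, with no share of all rows given for these settings.

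**Figure D4:**
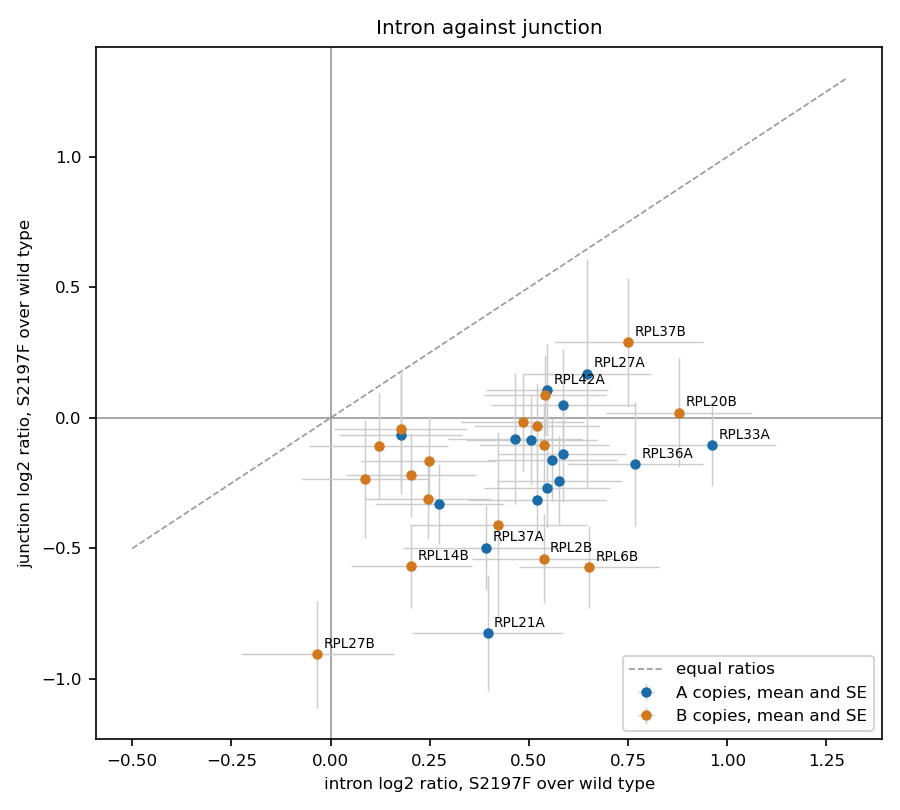
Mean log2 ratio of the intron (horizontal axis) against that of the junction (vertical axis) for 33 of the 35 members, with A copies in blue and B copies in orange, SEs as grey lines and the line of equal ratios dashed. Every point lies below the dashed line, from RPL27B at the lower left to RPL33A at the far right.

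Intron minus exon rose for 21 of 35 members and fell for 0, beside 29.3% of all 246 rows that rose, and it was above 0 in every replicate for 30 of 35 and below 0 for 0, against 54.2% and 5.83%. The members' share of 60% was near that of paired small subunit genes (26 of 44, 59.1%) and left-out large subunit pairs (8 of 15, 53.3%). Single-copy ribosomal protein genes had 3 of 7, and genes outside these lists 14 of 145. RPL33A had 1.97, 0.81 and 1.17 (1.32 ± 0.25, adjusted p = 0.0013), and RPL2A had 1.38, 1.04 and 1.40 (1.27 ± 0.23, adjusted p = 0.00098). The RPL2A value was the steadier of these and came with the lowest exon. RPL13A had 1.08 ± 0.24 (adjusted p = 0.0035) and RPL27A 1.07 ± 0.27 (adjusted p = 0.0063), while RPL27B, RPL16B and RPL24A were the lowest at 0.00 ± 0.24, 0.28 ± 0.23 and 0.29 ± 0.25. Replicate 1 carried larger values (median 0.86, against 0.60 and 0.65), and without it 0 members passed, while 11 did without replicate 2. Here too the shares of all rows in these settings are not given. Junction minus exon passed for 0 of 35 members by limma (0% of all 244 rows). At an unadjusted p under 0.05 it was above 0 in 1 member and below 0 in 1, against 2.05% and 2.46% of all rows. Of 32 members measured in all 3 replicates 6 were above 0 in each and 3 below, against 18.1% and 15.7% of all rows. The members' medians were 0.15, 0.06 and -0.01.

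The last comparison sets the A copy of a pair against the B copy within each replicate. In introns, both copies rose in 3 pairs (RPL6, RPL33 and RPL36), 1 copy rose in 8 pairs, and neither rose in 6 (RPL13, RPL14, RPL16, RPL23, RPL24 and RPL40). Of all 251 intron features 23.5% rose. Counts by pair were made for the members only, so they are a listing without a background. Among the copies that rose alone were RPL2A, RPL27A, RPL34A, RPL42A and RPL43A, and RPL21B and RPL37B. A rise of 1 copy alone does not show that the copies differ, and the difference itself passed for 0 of 17 pairs by limma, as for all 44 pairs of the table with names ending in A and B (0%). At an unadjusted p under 0.05 there were 5 pairs with A above B and 0 with B above A, against 11.4% and 6.82% of all pairs.

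RPL27, RPL42, RPL33 and RPL43 were among these 5, and each had A above B in every replicate. The RPL27 difference was 1.23, 0.21 and 0.60 (0.68 ± 0.22, adjusted p = 0.15). The RPL42 difference was smaller but steadier, at 0.41, 0.41 and 0.55 (0.46 ± 0.16, adjusted p = 0.20). RPL33 had 0.44, 0.23 and 0.60 (0.42 ± 0.17) and RPL43 0.37, 0.22 and 0.64 (0.41 ± 0.17), both with an adjusted p of 0.25.

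When ribosomal protein pairs alone were tested, which leaves out the SNR17 pair and no other, 2 of the 17 member pairs passed. RPL27 was among them (limma, adjusted p = 0.045). Without replicate 1, 1 of the 17 member pairs passed. How many pairs outside the members passed in these settings is not given here, so these counts have no background beside them. Over the alternatives the adjusted p of RPL27 ran from 0.045 to 0.58. The RPL34 difference was 0.57, -0.03 and 0.40 (0.31 ± 0.18, adjusted p = 0.43), although RPL34A rose and RPL34B did not. In RPL37 the B copy was the higher, at -0.12, 0.09 and -1.04 (-0.36 ± 0.24, adjusted p = 0.45), a mean that rests on replicate 3.

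Copies were most alike in the introns of RPL2 (0.22, 0.03 and -0.22, 0.01 ± 0.17), RPL13 (0.25, -0.15 and 0.00, 0.04 ± 0.17) and RPL24 (0.21, -0.22 and -0.19, -0.07 ± 0.18). RPL2A rose and RPL2B (0.54 ± 0.18, adjusted p = 0.067) did not, with means that agree to 0.01. Across the 17 pairs A was above B in all 3 replicates in 6 and below in 0, beside 25% and 13.6% of all pairs. By copy, 9 of 17 A introns (52.9%) and 5 of 17 B introns (29.4%) rose, beside 23.5% of all 251 intron features. The median of A minus B was 0.26 over these pairs, against 0.08 over all 44 pairs and 0.07 over 21 small subunit pairs. Over the 5 left-out large subunit pairs in this fit it was -0.15, with 2 pairs above 0 in every replicate and 2 below. The members' lean towards A was not the same in each replicate, with medians of 0.41, 0.05 and 0.23.

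**Figure D5:**
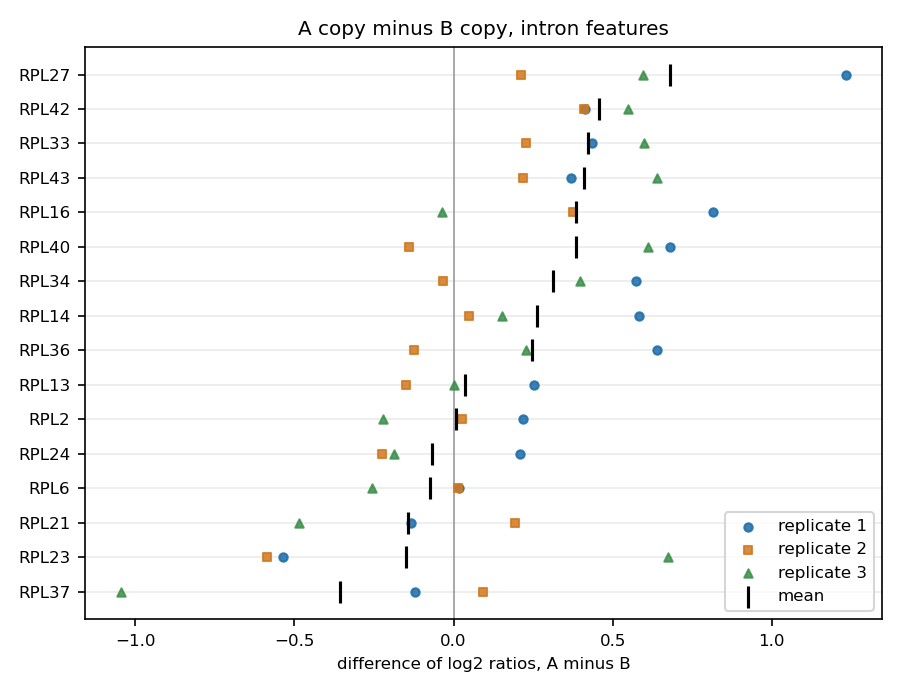
Difference between the intron log2 ratios of the A copy and the B copy (horizontal axis) for 16 of the 17 pairs, ordered by mean. Coloured symbols are the 3 replicates and black bars their mean. RPL27, RPL42, RPL33 and RPL43 lie above 0 in every replicate, and RPL37 is lowest at -0.36.

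In junctions the copies did not differ by limma either, with 0 of 17 pairs past the threshold (0% of 43 pairs). At an unadjusted p under 0.05, A was above B in 1 pair and below B in 2, near the 4.65% and 6.98% of all pairs. Of 14 pairs measured in every replicate A was above B in all 3 in 4 and below in 3, against 22.2% and 13.9% of all pairs. RPL27A was above RPL27B by 0.54 and 1.65 in the 2 replicates that measured both (1.09 ± 0.44, adjusted p = 0.33), so both its intron and its junction were higher in the A copy. RPL37A was below RPL37B by 1.45, 0.37 and 0.54 (-0.79 ± 0.36, adjusted p = 0.35), and RPL21A below RPL21B by 0.57, 0.33 and 1.27 (-0.72 ± 0.36, adjusted p = 0.42), each in every replicate. RPL14 had -0.28, 0.37 and 1.38 (0.49 ± 0.36) and RPL42 0.06, 0.41 and 0.56 (0.34 ± 0.36). The copies of RPL34, RPL16 and RPL43 differed least, by 0.00 ± 0.36, 0.03 ± 0.44 (n = 2) and -0.10 ± 0.36. In this fit all variances were drawn to 1 value, so the SEs carry no information on single pairs.

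In exons 0 of 17 pairs passed by limma (0% of 45 pairs). A was above B in every replicate in 1 pair and below in 2, against 15.6% and 13.3% of all pairs. At an unadjusted p under 0.05, A was above B in 0 pairs and below B in 1, against 2.22% and 6.67% of all pairs. That pair was RPL2, named because it was the only one: RPL2A was below RPL2B by 0.54, 0.43 and 0.60 (-0.53 ± 0.14, adjusted p = 0.17), although the copies encode the same protein. For intron minus junction 0 of 17 pairs passed (0% of 43 pairs), and 0 did before adjustment, where 0% of all pairs were higher and 2.33% lower. Averaged over replicates, partners were no closer to each other than to members of other pairs. For the means over replicates, the median size of the difference was 0.31 between the introns of a pair and 0.24 between introns of different pairs (17 and 544 combinations), 0.27 and 0.23 for junctions, and 0.17 and 0.17 for exons. Replicate 1 alone had closer partners, at 0.26 against 0.45 for junctions (15 and 481 combinations) and 0.31 against 0.48 for exons, but not for introns (0.44 against 0.36).

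Agreement between replicates across members was modest. For introns Pearson's r over the 35 members was 0.34 between replicates 1 and 2, 0.54 between 1 and 3, and 0.18 between 2 and 3. For junctions it ran from -0.10 to 0.30 and for exons from -0.26 to 0.24. Across members the mean intron ratio had r = 0.39 with the junction and 0.04 with the exon, and across the 17 pairs A minus B had r = 0.53 between introns and junctions. These are descriptions over genes that share the same arrays, with no test. No fit compared introns of different pairs, so the order of the members within the intron class was not tested. Across wide gaps it held in each replicate, as for RPL33A above RPL42B and RPL27B, which were picked by these same means. Neighbours in that order lie well within their SEs.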

How the data were processed

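Per its column names, the deposited table holds log ratios of S2197F over wild type for exon, intron and junction features. The labels record that the authors combined an array and its dye-swapped partner into a single value for each culture pair. Background correction, spot filters and normalization are not known here. The authors' deposited values name no logarithm base and were taken as log2. No intensities or depths were used, so precision rests on 3 replicates. A further table of spot positions without gene names was left out.

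Tests against 0 used limma 3.58.1 in R 4.3.3 (lmFit, eBayes) on features measured in 2 or more replicates. Exon, intron and junction features went into 1 fit of 733 features, and each kind of difference, within rows or A minus B, into a fit of its own over the whole table. In the fit of 733 features, exon or junction values repeated in another row were used once. The fits of differences within rows kept every row, so repeated values entered them again. A minus B used every pair with 1 row per copy. The code was tested on simulated data. Named genes were the highest and lowest introns, junctions, exons and differences by a written rule. Members and lists were chosen with earlier results of these data known. 1 gene, with its pair, is counted but not reported by name here. Each list is described by counts and medians.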

Additional observations from a re-analysis of the deposited data

How the results depend on the processing

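The 9 alternatives left out each replicate in turn, centred the replicates on exon or on all features, required values in every replicate, fitted the classes separately, used a robust prior, or tested ribosomal protein pairs alone. The limits are the small number of replicates and the unknown processing before deposit. Without 1 replicate, the number of member introns that rose ran from 0 to 10, of intron minus junction from 0 to 8, of intron minus exon from 0 to 18, of junctions that fell from 0 to 2, and of A minus B introns from 0 to 1. Ribosomal protein pairs alone gave 2 such member pairs, RPL27 among them. Without 1 replicate, medians over the members ran from 0.41 to 0.56 (introns), -0.24 to -0.12 (junctions) and -0.32 to -0.23 (exons). For intron minus junction they ran from 0.66 to 0.71, above the 0.63 found with all 3 replicates. Centring on exon features gave 0.66, -0.029 and -0.15 for the 3 classes. Exon calls, junction minus exon calls, and A minus B calls other than those of introns stayed at 0 under every alternative run. Shares over all features under the alternatives are not given here, so the member counts of this section have no background beside them.

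Some values near 0 changed sign when 1 replicate was left out, and none of these had passed. Their ranges were -0.26 to 0.15 (RPL27B intron), -0.086 to 0.065 (its exon), -0.17 to 0.23 (its intron minus exon), -0.093 to 0.53 (RPL37B junction), -0.065 to 0.23 (RPL42A junction), -0.41 to 0.30 (RPL34A exon), -0.10 to 0.52 (RPL24A intron minus junction) and -0.011 to 0.58 (its intron minus exon). For A minus B they were -0.10 to 0.12 (RPL2), -0.073 to 0.13 (RPL13) and -0.21 to 0.011 (RPL24) in introns, and -0.049 to 0.10 (RPL34) and -0.37 to 0.11 (RPL43) in junctions. Centring on exon features gave RPL27B 0.10 for the intron and 0.10 for the exon. The cause of these changes was not tested. Each ratio already compares a mutant culture with its own wild-type culture, so the tests against 0 are paired as they stand.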
